A study of Mus musculus with 4 samples.

Results

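The MHC class II presentation genes are 10 genes that build, load and regulate the molecules with which antigen-presenting cells show peptides to CD4+ T-cells. They are H2-Aa, H2-Ab1 and H2-Eb1, Cd74, Ciita, H2-DMa, H2-DMb1, H2-Oa and H2-Ob, and Cd86. Every probe set that the platform annotation assigns to 1 of these symbols alone was taken, which gave 18 of 45037 probe sets and covered 9 of the 10 genes. H2-DMb1 shares its 2 probe sets with another gene and has no value of its own. The genes were chosen by measured values of this same comparison, with their lower signals in IL-10+ cells already known, so the differences of the members between IL-10+ and IL-10- cells are a description without a test.

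The arrays measured RNA of CD4+CD25+ T-cells from lymph nodes of C57BL/6 mice of 6 to 12 weeks, 3 days after intraperitoneal injection of the CD28 superagonist D665 (CD28SA), an antibody that stimulates T-cells through CD28 by amplifying weak signals of the T-cell receptor. For all 4 samples the cells spent a night in culture with antibodies to CD3 (2 µg/ml) and to CD28 (5 µg/ml) plus 200 U/ml of IL-2, and were then sorted into cells that secreted IL-10 (IL-10+, replicates 1 and 2) and cells that did not (IL-10-, replicates 3 and 4). CD4+ cells had been prepared by negative selection and CD25+ cells with beads, with no sort on Foxp3. Since no label tells if replicates stem from different mice or sorts, the p-values given for other genes rest on a spread between samples that may be purely technical. Values are taken as log2, because the highest of them, 14.4, lies above 11.1, the natural log of the largest reading of a 16-bit scanner. A legend of the study gives changes as natural logs of folds, and if that held for this table, every fold given here would be larger. Array medians ran from 6.31 to 6.41, and values near them have little room to fall, since variance stabilization compresses dim signals. Il10, on which the cells were sorted, stood at 12.02 and 12.00 in IL-10+ and at 10.41 and 10.37 in IL-10- samples. The T-cell genes were well above the array medians in every sample by their brightest probe sets (those with the highest mean over the 4 arrays), but not equal between the groups. Of 7 such markers, 3 were higher in IL-10+ samples and 1 was lower by limma at an adjusted p under 0.05 (8.37% and 22.9% of all genes were). Cd3e was at 11.02 and 10.98 against 10.94 and 10.83, and Il2ra, which encodes CD25, at 12.85 and 12.75 against 12.90 and 13.14, while a dimmer probe set of Il2ra was higher by 0.38. Foxp3 was the lower one, at 10.86 and 10.79 against 11.54 and 11.55 (-0.72, adjusted p = 0.000174). Cd4 was higher, at 10.51 and 10.69 against 10.06 and 10.11, and its second probe set at 9.86 and 9.91 against 6.97 and 6.67, the latter close to the array medians.

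A class II molecule is a pair of an alpha and a beta chain. In the endoplasmic reticulum the pair is held by the invariant chain, the product of Cd74, which fills the groove and guides the pair to endosomes. There proteases trim the invariant chain, and the DM molecule exchanges its remainder for peptides from ingested proteins, while the DO molecule restrains DM. B cells, dendritic cells and activated macrophages make these proteins, and mouse T-cells are known for making little or none of them, unlike activated human T-cells. Transcription of the class II chains, the invariant chain and DM depends on CIITA, a co-activator that docks on the factors RFX, CREB and NF-Y, which bind neighbouring X and Y boxes just upstream of these genes. CD86 is regulated apart from them. The C57BL/6 strain carries a defective alpha chain gene of the E pair, so its cells display only the A pair, although the E beta chain gene H2-Eb1 is intact.

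The Y box and X box can be looked for as letters in the promoters, and those of 4 genes measured on the arrays are shown to display them, each from 250 bases before to 50 bases after the start site (RefSeq, build GRCm38.p6, 5′ to 3′ on the strand of the gene). H2-Aa lies at chr17:34287774-34288073 on the minus strand, H2-Eb1 at chr17:34305617-34305916, H2-Ob at chr17:34238655-34238954 and H2-Oa at chr17:34092129-34092428, all 3 on the plus strand. Capitals mark GATTGG, the core of the Y box, searched on both strands (CCAATC where it is read from the other one), and an X box pattern, AGNAAC followed by NN and then ATGATGC without a break (N is any base, both strands), which was written down after these promoters had been seen. The 2 patterns do not overlap in them.
H2-Aa: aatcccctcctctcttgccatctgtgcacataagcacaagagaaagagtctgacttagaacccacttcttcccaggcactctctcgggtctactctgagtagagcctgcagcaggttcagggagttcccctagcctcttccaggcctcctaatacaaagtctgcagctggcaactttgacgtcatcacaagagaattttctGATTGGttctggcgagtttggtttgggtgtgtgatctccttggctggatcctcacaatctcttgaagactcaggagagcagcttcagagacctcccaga
H2-Eb1: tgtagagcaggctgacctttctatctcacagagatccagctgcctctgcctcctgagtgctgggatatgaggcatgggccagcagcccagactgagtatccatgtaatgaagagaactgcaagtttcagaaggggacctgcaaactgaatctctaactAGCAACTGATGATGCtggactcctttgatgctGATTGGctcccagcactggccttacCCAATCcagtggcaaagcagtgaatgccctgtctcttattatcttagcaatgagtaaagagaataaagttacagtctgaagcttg
H2-Ob: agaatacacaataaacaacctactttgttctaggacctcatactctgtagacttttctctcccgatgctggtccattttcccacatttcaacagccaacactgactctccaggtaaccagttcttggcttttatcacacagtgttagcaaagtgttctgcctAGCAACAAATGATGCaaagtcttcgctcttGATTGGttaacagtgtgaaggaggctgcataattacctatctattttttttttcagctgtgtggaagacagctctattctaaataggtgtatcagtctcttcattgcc
H2-Oa: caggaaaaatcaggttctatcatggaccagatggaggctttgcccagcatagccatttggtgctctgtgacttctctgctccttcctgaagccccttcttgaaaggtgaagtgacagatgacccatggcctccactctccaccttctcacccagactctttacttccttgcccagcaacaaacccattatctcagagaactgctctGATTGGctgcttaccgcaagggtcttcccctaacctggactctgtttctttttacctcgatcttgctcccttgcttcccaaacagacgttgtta
GATTGG starts 49 bases before the start site in H2-Aa, 60 in H2-Eb1, 58 in H2-Ob and 44 in H2-Oa. In H2-Eb1 and H2-Ob it follows the X box pattern after 17 and 15 bases. H2-DMb1 holds both patterns as well, 18 bases apart. H2-Aa and H2-Oa do not hold the X box pattern. H2-DMa has 2 start sites in the table, 1 of which holds GATTGG, and H2-Ab1, Cd74, Ciita and Cd86 have no entry. Of 32851 promoter windows of this length, 16.1% hold GATTGG, and 4 (0.0122%) hold the X box pattern, 3 of them among the class II genes. As the pattern was taken from these promoters, that share supports nothing, and a match is only a description of letters. Nor does a missing match to this strict pattern show that a promoter lacks an X box.

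Cells that secreted IL-10 had lower signals for 8 of the 9 measured genes, Ciita being the exception. The differences were largest for H2-Aa and Cd74, followed by H2-Eb1 and H2-DMa, and were below 1 on the log2 scale for H2-Ab1, H2-Oa, H2-Ob and Cd86. Since H2-Ob and Cd86 lay below the array medians in IL-10+ samples, the size of their differences may be understated. Of the 18 probe sets, 15 were lower in both IL-10+ samples than in both IL-10- samples (30.5% of all probe sets were) and had an adjusted p under 0.05 in limma (16.2% of all probe sets were lower by this rule). In the other direction it was 0 of 18 in limma, also at an unadjusted p under 0.05 (13.6% of all probe sets were higher at the adjusted limit), and 1 of 18 by groups that did not overlap (32.5%). By the 2-fold limit of the methods with an adjusted p under 0.001, 6 of 18 were lower and 0 higher (0.575% and 1.72% of all probe sets). The median difference was -0.69 on the log2 scale over the 18 probe sets, against 0.01 over all probe sets tested. Since these genes were picked with this contrast in view, the counts describe them and are no evidence of their direction. In a bulk sample, fewer cells that express a gene and less of its RNA per cell cannot be told apart.

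**Figure D1:**
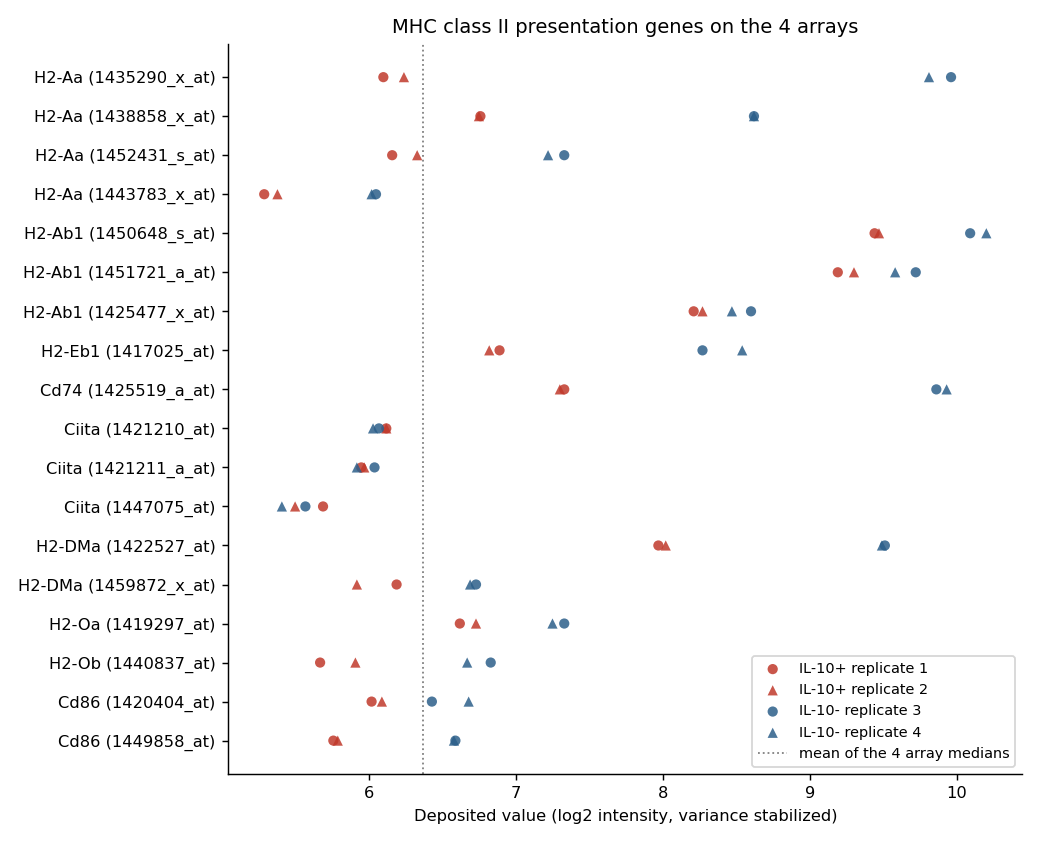
Deposited value (log2, horizontal axis) of each probe set of the class II presentation genes on the 4 arrays, with IL-10+ samples in red and IL-10- samples in blue. Both red points lie left of both blue points for every probe set except those of Ciita, and for H2-Aa (1435290_x_at) they stand at 6.10 and 6.24 against 9.96 and 9.81.

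H2-Aa encodes the alpha chain of the A pair. Its brightest probe set (1435290_x_at) gave 6.10 and 6.24 in IL-10+ and 9.96 and 9.81 in IL-10- samples. The groups were thus separated by a gap of 3.56, while replicates differed by 0.16 at most, and the IL-10+ values lay below the median of their arrays. This is a difference of -3.71 (standard error 0.08) on the log2 scale, or 13.1-fold. The second probe set (1438858_x_at) gave 6.76 and 6.75 against 8.62 and 8.62, a difference of -1.86 (standard error 0.06). The remaining ones, 1452431_s_at (6.16 and 6.33 against 7.33 and 7.22) and 1443783_x_at (5.29 and 5.38 against 6.05 and 6.02), differed by -1.03 and -0.70. The 4 probe sets of 1 gene therefore shared the direction but not the size, and the dimmer the probe set, the smaller was its difference. All 4 carry the suffix x or s, marks of probes that can also match related transcripts, so no value of H2-Aa comes from probes without that mark. With the probe sets averaged, the difference of H2-Aa was -1.83.

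H2-Ab1, the beta chain of the same pair, behaved differently in size. Its brightest probe set (1450648_s_at) was at 9.44 and 9.47 in IL-10+ and at 10.09 and 10.20 in IL-10- samples, a difference of -0.69 (standard error 0.07) on the log2 scale. Both IL-10+ values thus stayed well above the array medians, unlike those of H2-Aa. The other probe sets gave 9.19 and 9.30 against 9.72 and 9.58 (1451721_a_at) and 8.21 and 8.27 against 8.60 and 8.47 (1425477_x_at), differences of -0.40 and -0.29. The last had the narrowest gap between the groups among the 15 lower probe sets, 0.20. Without IL-10+ replicate 1 neither of these 2 passed an adjusted p of 0.05, and without IL-10+ replicate 2 the last did not. The levels of alpha and beta chain cannot be compared directly, because probe sets differ in affinity.

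H2-Eb1 encodes the beta chain of the E pair and is read by a single probe set without a suffix (1417025_at). It was at 6.89 and 6.82 in IL-10+ and at 8.27 and 8.54 in IL-10- samples, which did not overlap. The difference was -1.55 (standard error 0.09) on the log2 scale, or 2.93-fold, and ran from -1.68 to -1.42 when each array was left out in turn. H2-Ea, the alpha chain gene that C57BL/6 mice carry in a defective form and that lies outside the list, was at 7.43 and 7.38 against 7.45 and 7.27 in its brightest probe set and differed by 0.04 (limma adjusted p = 0.759). Its other 2 probe sets differed by -0.07 and -0.01. Since the gene is defective in this strain, these values cannot tell how an intact class II gene would differ.

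Cd74, the invariant chain, had the second largest difference of the list. Its probe set (1425519_a_at) gave 7.33 and 7.30 in IL-10+ and 9.86 and 9.93 in IL-10- samples, with replicates within 0.07 of each other. The difference of -2.59 (standard error 0.06) on the log2 scale is 6.01-fold, and it stayed between -2.66 and -2.55 under every alternative run for it. No suffix x or s marks this probe set.

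The peptide exchange genes were lower to different extents. H2-DMa, the alpha chain of DM, gave 7.97 and 8.02 in IL-10+ and 9.51 and 9.49 in IL-10- samples (1422527_at), a difference of -1.51 (standard error 0.06) on the log2 scale, or 2.84-fold. Its second probe set (1459872_x_at) was dim, with 6.19 and 5.92 against 6.73 and 6.69, and differed by -0.66, and its IL-10+ replicates were 0.27 apart, the widest replicate gap of the 18 probe sets. H2-Oa and H2-Ob encode the chains of DO, the inhibitor of DM, known from B cells and thymic epithelium. H2-Oa (1419297_at) was at 6.62 and 6.73 against 7.33 and 7.25, a difference of -0.61 (standard error 0.07). H2-Ob (1440837_at) was at 5.67 and 5.91 against 6.83 and 6.67, a difference of -0.96 (standard error 0.10), so that in IL-10+ samples it lay below the array medians. Neither group overlapped the other for any of these probe sets.

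Cd86, a ligand of CD28 and CTLA-4 that antigen-presenting cells put up beside class II, was dim in all samples. Its probe set 1449858_at gave 5.76 and 5.79 in IL-10+ and 6.59 and 6.58 in IL-10- samples, a difference of -0.81 (standard error 0.06) on the log2 scale. The other one (1420404_at) gave 6.02 and 6.09 against 6.43 and 6.68, a difference of -0.50 (standard error 0.09), and -0.38 without IL-10- replicate 4. Cd80, its relative with the same receptors, was not called in any of 4 probe sets, which differed by -0.04 to 0.04, the brightest by -0.04 (limma adjusted p = 0.715). That one lay close to the array medians, at 6.31 and 6.37 against 6.35 and 6.41, and the others below them. A fall of Cd80 would thus be hard to detect.

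Ciita, the co-activator, was not called in any probe set. Its brightest probe set (1421210_at) was at 6.12 and 6.12 in IL-10+ and at 6.07 and 6.03 in IL-10- samples, a difference of 0.07 (standard error 0.06) on the log2 scale, or -0.01 after median centring. The other probe sets differed by -0.02 (1421211_a_at, 5.95 and 5.97 against 6.04 and 5.92) and 0.10 (1447075_at, 5.69 and 5.50 against 5.57 and 5.41), and their groups overlapped. All 3 lay below the array medians in both groups, where a fall would be hard to detect. In IL-10+ samples 10 of the 18 probe sets of the list lay below both array medians, against 4 in IL-10- samples, namely those of Ciita and the dimmest of H2-Aa.

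**Figure D2:**
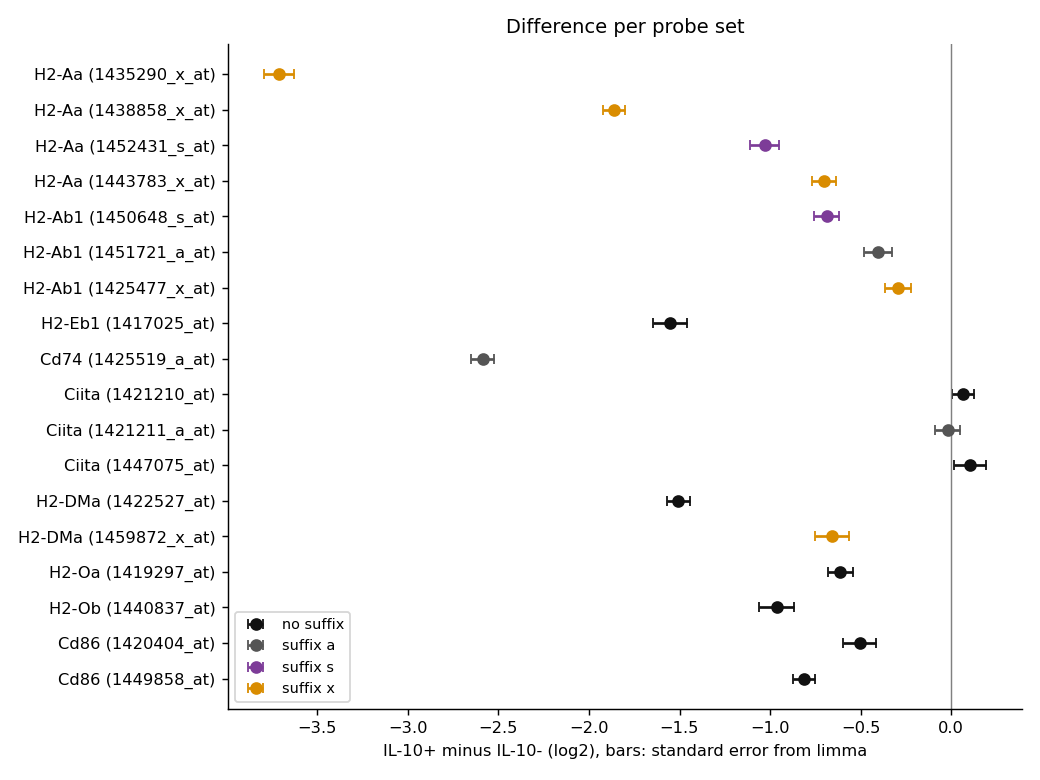
Difference between the groups (IL-10+ minus IL-10-, log2, horizontal axis) for the 18 probe sets, with standard errors from limma and colours for the suffix of the probe set identifier. Differences run from -3.71 for H2-Aa (1435290_x_at) to 0.10 for Ciita (1447075_at).

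The pattern can be split by suffix. The 5 probe sets with x and 2 with s all lay on the lower side, with a median difference of -0.70 on the log2 scale, and they read H2-Aa, H2-Ab1 and H2-DMa only. The 11 without x or s had a median of -0.61, and 8 of them were lower, the others being those of Ciita. Replicate 3 exceeded replicate 4 in 14 of 18 probe sets, by a median of 0.04, with differences from -0.27 (H2-Eb1) to 0.17 (Ciita, 1447075_at), and replicate 1 minus replicate 2 had a median of -0.04. By brightest probe set it was 5 of 9 genes, against 22968 of 45037 probe sets over the whole array.

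The 8 other genes of the class II region on chromosome 17 that the array reads, from H2-Oa to H2-Ea, fell in part as well. They were lower for 6 of 8 genes by their brightest probe sets and higher for 0 of 8, also at an unadjusted p under 0.05 in limma, with a median of -0.48 on the log2 scale (22.9% of all genes were lower and 8.37% higher, with a median of -0.01). H2-DMb2, a second DM beta chain gene beside H2-DMa, fell by 0.91 (adjusted p = 0.000229). Between the DM genes and H2-Ob lie 4 genes of class I presentation. Of these, the immunoproteasome subunits Psmb9 and Psmb8 fell by 0.72 and 0.69, and the peptide transporter chain Tap1 by 0.67 (adjusted p = 0.000246), although a dimmer probe set of Tap1 was higher by 0.50. Its partner Tap2 fell by 0.24 and Brd2, a chromatin reader, by 0.29, and neither passed after quantile normalization (adjusted p = 0.168 and 0.141), nor without IL-10+ replicate 1 (0.280 and 0.104), IL-10+ replicate 2 (0.0727 and 0.143) or IL-10- replicate 4 (0.0862 and 0.0825). H2-Eb2 differed by 0.05 (adjusted p = 0.734), and the other gene that was not lower is H2-Ea, which is defective in this strain. Psmb8, Psmb9, Tap1, Tap2 and H2-DMb2 are counted again in the lists below.

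**Figure D3:**
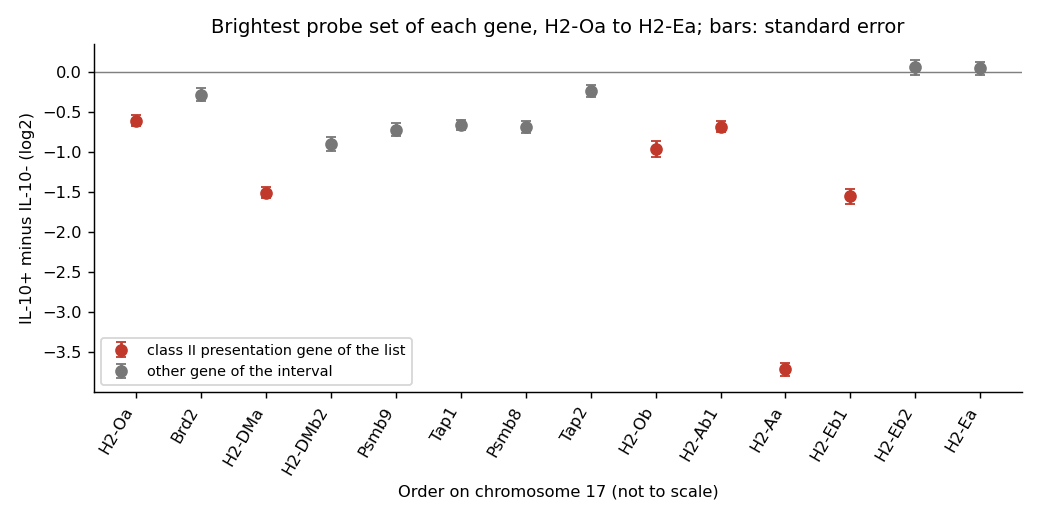
Difference between the groups (IL-10+ minus IL-10-, log2, vertical axis) for the brightest probe set of each measured gene of the class II region, in their order on chromosome 17 and not to scale, with standard errors from limma. Class II genes of the list (red) reach -3.71 at H2-Aa, and H2-Eb2 and H2-Ea at the end of the interval lie at 0.05 and 0.04.

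The partners of CIITA on the promoter moved in both directions. Of 7 genes for RFX, NF-Y and CREB subunits, 5 fell and 1 rose (22.9% and 8.37% of all genes did), with a median of -0.32 on the log2 scale. Rfx5, an RFX subunit, fell by 0.41 (limma adjusted p = 0.00202), and so did the NF-Y subunit gene Nfya by 0.40 in its brightest probe set, whereas a dimmer one was higher by 0.55 (adjusted p = 0.00119). Nfyc fell by 0.40, but not without IL-10+ replicate 2 (adjusted p = 0.0700), and Rfxap (-0.32) not without IL-10+ replicate 1 (adjusted p = 0.0573). Creb1 (-0.31) did not pass without either IL-10+ replicate or IL-10- replicate 4, or after quantile normalization (adjusted p from 0.0524 to 0.148), and 2 dimmer probe sets of Creb1 were higher by 0.42 and 0.74. Another dimmer probe set of Creb1 was lower by 0.38 (limma adjusted p = 0.0127). Nfyb, the third NF-Y subunit, rose by 0.72 (adjusted p = 0.000372). The count of lower genes was 3 when either IL-10+ replicate was left out and when probe sets were averaged.

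Endosomal proteases and their partners moved in both directions. Of 12 genes, 4 fell and 5 rose (22.9% and 8.37% of all genes did), with a median of 0.06 on the log2 scale. Those that fell were Ctsh (cathepsin H, -1.36, adjusted p = 3.43e-05), Ifi30, the thiol reductase that opens disulfide bonds of ingested proteins (-0.77, adjusted p = 0.000115), Napsa, an aspartic protease (-0.56), and Ctss, cathepsin S, which cuts the invariant chain (-0.31, and not called after quantile normalization, adjusted p = 0.0793, or without IL-10+ replicate 1, 0.106). The largest rise was that of Ctse (cathepsin E) by 1.46 (adjusted p = 0.000220), whose dimmer probe set was lower by 0.40. Ctsb (cathepsin B) differed by 0.12 in its brightest probe set, and of its dimmer ones 2 were higher by 1.33 and 0.41 and 1 lower by 0.25. The number of genes that rose was 3 without IL-10+ replicate 2.

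Of 16 class I presentation genes, 8 fell and 3 rose (22.9% and 8.37% of all genes did), with a median of -0.23 on the log2 scale. Nlrc5, the counterpart of CIITA for class I genes, fell by 0.69 (limma adjusted p = 0.000366), as did the genes of the class II region named above. B2m, the light chain of class I, differed by 0.00. Pdia3, a chaperone of the peptide loading complex, rose by 1.27 (adjusted p = 2.73e-05). The other genes that rose, Canx (0.25) and Tapbpl (0.28), did not pass after median centring (adjusted p = 0.104 and 0.0647) or without IL-10+ replicate 1 (0.187 and 0.0975) or 2 (0.0900 and 0.145), nor Canx without IL-10- replicate 3 (0.0535) and Tapbpl without IL-10- replicate 4 (0.0722). Of the dimmer probe sets of Canx, 1 was higher by 0.95 and 1 lower by 0.31. Tapbp, which encodes tapasin of the loading complex, fell by 0.54 in its brightest probe set, but the other one was at 8.77 and 8.79 in IL-10+ and at 7.18 and 6.88 in IL-10- samples and rose by 1.75 (adjusted p = 2.83e-05).

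Among 11 further class II and costimulation genes, 4 fell and 0 rose, also at an unadjusted p under 0.05, with a median of 0.04 on the log2 scale. Over all genes 22.9% fell and 8.37% rose at the adjusted limit. Cd83, a surface protein that stabilises class II and CD86 on antigen-presenting cells, had the largest fall, with 7.86 and 7.96 in IL-10+ and 9.79 and 9.74 in IL-10- samples (-1.86, limma adjusted p = 6.45e-06). Dimmer probe sets of Cd40 were lower by 0.26 and 0.76 (limma adjusted p = 0.0247 and 0.000297). In its brightest one the fall was less stable. Cd40 fell by 0.36, but not without IL-10+ replicate 1 (adjusted p = 0.0579), and Marchf8, a ubiquitin ligase of class II, by 0.26, but not without IL-10+ replicate 1 (0.214) or 2 (0.0524), so that 2 genes were lower without IL-10+ replicate 1. Cd274 and Pdcd1lg2, the ligands of PD-1, differed by 0.14 and 0.07, and Cd274 was higher without IL-10- replicate 4 (0.29, adjusted p = 0.0100).

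Most markers of B cells and plasma cells were lower in IL-10+ samples, as the class II genes were. Most markers of dendritic cells and macrophages were not, but many of them lay near or below the array medians, where a fall would be hard to detect. Of 13 B cell markers, 8 were lower and 0 higher in IL-10+ samples (22.9% and 8.37% of all genes were), also with 0 higher by an unadjusted p under 0.05 in limma. Their mean level was 6.64 and 6.60 in IL-10+ against 7.21 and 7.12 in IL-10- samples. These means are raised by Ighm, the brightest of the markers, at 12.36 and 12.30 against 12.97 and 13.14 (-0.73, adjusted p = 0.000372). Dimmer probe sets of Ighm differed by -3.02 to 0.15. Ms4a1, which encodes CD20, was at 5.82 and 5.67 against 6.97 and 6.95 (-1.22, adjusted p = 3.73e-05), and Cd79a, a chain of the B-cell receptor complex, at 6.04 and 6.09 against 6.71 and 6.57 (-0.58, adjusted p = 0.000808). The B-lineage factors Pax5 and Ebf1 lay below the array medians in all samples and differed by -0.03 and 0.02 in their brightest probe sets, while 2 dimmer probe sets of Ebf1 were lower by 0.58 and 0.63. Of 6 plasma cell markers, 4 were lower and 0 higher (0 also by unadjusted p), with mean levels of 7.30 and 7.33 against 9.15 and 9.16. The largest falls were those of Igha (-5.45), Mzb1 (-2.75) and Jchain (-2.75), while Sdc1 fell by 0.31. A dimmer probe set of Sdc1 was lower by 0.47, and others differed by 0.06 and 0.05 and were not called. Tnfrsf17 and Tnfrsf13b differed by 0.07 and 0.18 and were not called, but Tnfrsf13b was higher after quantile normalization (0.29, limma adjusted p = 0.0202). The cells had been prepared by negative selection for CD4+ cells and with CD25 beads before the sort.

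Of 8 dendritic cell markers, 1 was lower and 1 higher (22.9% and 8.37% of all genes were). Their mean levels, 6.36 and 6.28 in IL-10+ against 6.42 and 6.40 in IL-10- samples, were close to the array medians of 6.31 to 6.41. The lower one was Fscn1, an actin-bundling protein (-1.40 in its brightest probe set, while 3 dimmer ones differed by -0.04 to 0.10), and the higher one, Xcr1 (0.24), was not called after median centring (adjusted p = 0.120) or without IL-10+ replicate 1 (0.266) or 2 (0.0674). Itgax, which encodes CD11c, was at 6.31 and 6.23 against 6.32 and 6.20, and Flt3 at 6.74 and 6.73 against 6.83 and 6.65, so their groups overlapped. Of 9 macrophage markers, 0 were lower, also by unadjusted p, and 3 higher (22.9% and 8.37% of all genes were at the adjusted limit). Their mean levels were 6.70 and 6.71 against 6.54 and 6.46, but Adgre1, Lyz2, C1qa, C1qb and Mrc1 lay below the array medians in both groups. Csf1r, the receptor for M-CSF, was at 7.25 and 7.28 against 6.93 and 7.01 (0.30, not called without IL-10+ replicate 1, adjusted p = 0.0634, or 2, 0.0880). Dimmer probe sets of Csf1r differed by -0.02 and 0.10 and were not called. The other higher macrophage markers were Cd68, by 0.89 (limma adjusted p = 6.97e-05), and Cd14, by 0.49 (limma adjusted p = 0.00109). The part of B cell and plasma cell RNA in the falls of the class II genes was not tested. Probe sets at the 5' end of the poly-A control transcripts that are added for labelling were higher in IL-10+ samples, by a median of 1.16 (8 probe sets). The median was 0.82 for probe sets in the middle of these transcripts and 0.07 at the 3' end. The part of this shift in the differences of any gene given here was not tested either.

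**Figure D4:**
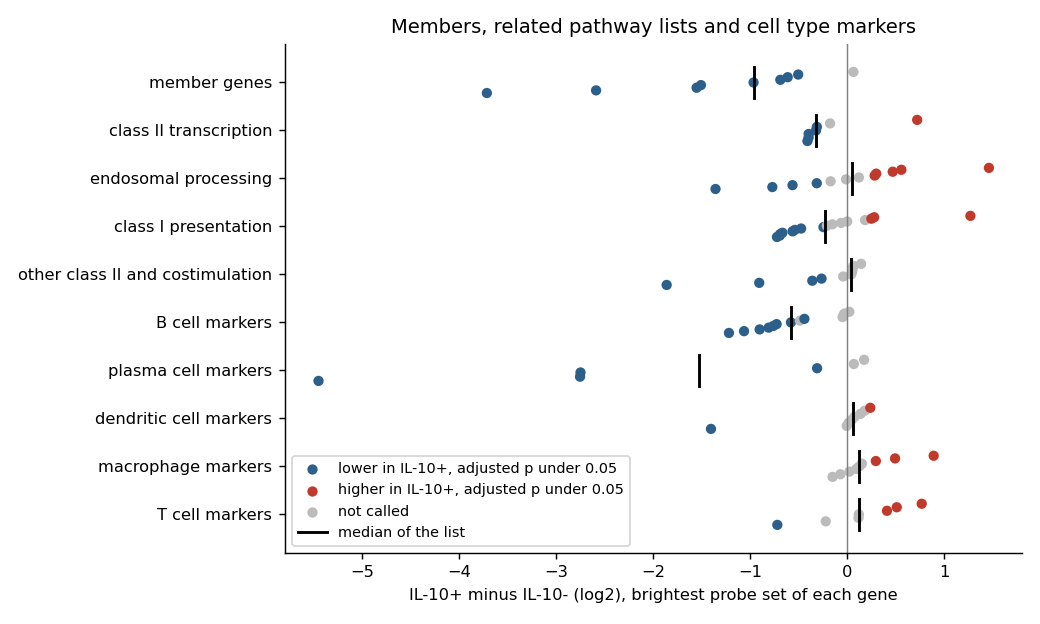
Difference between the groups (IL-10+ minus IL-10-, log2, horizontal axis) for the brightest probe set of each gene in the class II list, the related pathway lists and the cell type markers, with the median of each list as a bar. The class II list and the B cell and plasma cell markers extend to the left, with medians of -0.96, -0.58 and -1.53, and the medians of dendritic cell and macrophage markers are 0.06 and 0.13.

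The mean profile of H2-Aa, H2-Ab1, H2-Eb1 and Cd74 over the 4 arrays had a difference of -2.13 on the log2 scale. The 6 other genes nearest to it, by the root mean square distance of centred values over the 4 arrays, were Pou2af1 (0.037), Iglv1 (0.070), Ccr7 (0.076), Trat1 (0.080), Cnn3 (0.082) and Il18r1 (0.087). Pou2af1 encodes a B-cell co-activator and Iglv1 a light chain variable segment of antibodies. Ccr7, the lymph node homing receptor, and Trat1, which encodes an adaptor protein of the T-cell receptor complex, are expressed by T-cells. Cd74 itself was at a distance of 0.23 and H2-Eb1 at 0.30, since the members differ in size, and a distance over 4 arrays reflects mainly the size of the difference between the groups.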

How the data were processed

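RNA of 2 IL-10+ and 2 IL-10- samples was hybridised to 1 Affymetrix mouse GeneChip array each. The authors normalized signal intensities by variance stabilization with Bioconductor packages and deposited 45101 log2 values per array (the base is read from the values). The summary of probes into probe sets, software versions and genome build are not given in the sources used here. 

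Without the 64 control probe sets, 45037 were compared in R 4.3.3 by limma 3.58.1 (lmFit, then eBayes, two-sided, Benjamini-Hochberg adjustment over all of them), with 2 residual and 5.44 prior degrees of freedom, after the step had been tested on simulated data. A probe set or gene outside the class II list is said to have risen or fallen at an adjusted p under 0.05. With 2 arrays against 2, an exact test of 1 value cannot go below p = 0.333. Depth has no counterpart here, and the number of arrays limits the precision.

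The platform annotation names 1 gene for 34958 probe sets, several for 932 and none for 9211, and matching by gene identifier to RefSeq (GRCm38.p6) changed 0 symbols. Other genes were read by their brightest probe set, the one with the highest mean over the 4 arrays. Members and lists were chosen with earlier results of these data known. Named were all members, up to 4 passing genes of each pathway list by size, the 6 nearest profiles, Il10 and chosen markers. Genes named beyond this were chosen after their values were seen. Alternatives tried were median centring, quantile normalization, leaving out dim probe sets, a trend or robust prior, leaving out each array, the methods' threshold (2-fold and an adjusted p under 0.001), natural logs, averaged probe sets, and no suffixes x or s. Promoters came from RefSeq. Python 3.11.15 with matplotlib 3.10.9 drew the figures.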

Additional observations from a re-analysis of the deposited data

How the results depend on the processing

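The brightest probe sets of the 8 lower genes kept their sign under each alternative run for them. Leaving out each array gave 13 to 15 lower probe sets of the class II list, against 15, and 8 remained without those marked x or s. At the methods' threshold 6 were lower, and 9 when values were read as natural logs. At these 2 thresholds, class II transcription had 0 and 0 lower, and 0 higher at the first. Endosomal processing had 1 and 2 lower and 1 and 1 higher, class I presentation 0 and 1 lower and 1 and 1 higher, and the further class II and costimulation genes 1 and 2 lower. Leaving out each array gave 3 to 5 lower class II transcription genes, 3 to 5 higher endosomal genes, 1 to 3 higher class I genes, and 2 to 4 lower and 0 to 1 higher further class II and costimulation genes. Median centring left 1 higher class I gene, and averaged probe sets 3 lower class II transcription genes. The cause was not tested. Leaving out probe sets below the median removed 4 of the 15 lower ones from the fit, and the remaining 11 passed. No paired analysis was possible because the groups share no replicate number. Signals near the array medians limit what can be said of Ciita and Cd86. In IL-10+ samples 10 of the 18 probe sets lay below both array medians. Among them were the brightest of H2-Aa and that of H2-Ob, so the sizes of these differences are uncertain too.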

Other observations

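The 3 probe sets assigned to a class II presentation gene together with another gene were used for no gene. The 2 that name both DM beta chain genes, H2-DMb1 and H2-DMb2, gave 6.54 and 6.48 in IL-10+ and 6.93 and 6.81 in IL-10- samples (1449580_s_at), and 6.07 and 6.06 against 6.39 and 6.23 (1418638_at), so both groups were apart by less than in the probe sets of H2-DMa. The third, which names H2-Ob with Gm20506, gave 6.41 and 6.54 against 6.54 and 6.56 (1422201_at), whereas the probe set of H2-Ob alone differed by -0.96 on the log2 scale.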
